A study of Mus musculus with 14 samples.

Results

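Empty-vector hepatoblasts and hepatoblasts given extra wild-type IDH1 or wild-type IDH2 were compared on collagen, where 6 of the 14 arrays of the study were chosen by their titles and by nothing measured. They comprised 2 vector cultures, 2 cultures with wild-type IDH1 and 2 with wild-type IDH2, and every gene with a probe set of its own was followed, 12393 in all. The cells were mouse hepatoblasts, bipotent liver progenitors, taken at embryonic day 14 from wild-type animals and immortalised by plating at clonal density. Vector and enzymes were carried in a doxycycline-inducible system. All 6 cultures grew on rat tail collagen in DMEM/F-12 with 10% serum, epidermal growth factor at 50 ng/mL, insulin-like growth factor II at 30 ng/mL and insulin at 10 μg/mL. Doxycycline at 25 ng/mL was given in the IDH1 experiments. Whether vector and IDH2 cultures received it, which species the introduced sequences came from, how long they were induced and how many clones stand behind each line are not given in the sources used here. A further 8 arrays were used for their spread and as yardsticks. They also served to choose genes that respond to the plate and to follow single genes and differences between numbered cultures. On collagen these were cultures with IDH1 R132C or IDH2 R172K, 2 of each. On uncoated plates, kept up to 5 days, they were cultures with vector or IDH1 R132C, 2 of each.

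Isocitrate dehydrogenases oxidise isocitrate to 2-oxoglutarate. IDH1 does so in the cytosol and peroxisomes and IDH2 in mitochondria, both making NADPH, while the separate IDH3 complex of Idh3a, Idh3b and Idh3g makes NADH in the citric acid cycle. The R132C and R172K substitutions, found in cholangiocarcinoma, give the enzymes the added activity of turning 2-oxoglutarate into 2-hydroxyglutarate, and the wild-type cultures are the control that carries extra enzyme without it. The comparison with vector thus asks what extra normal enzyme alone did to the transcriptome, and how small a change the arrays could have shown.

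The cells had the look of their label in part. Levels are log2 of the deposited intensity, and the lower quartile of the 14 arrays lay between 4.72 and 4.81, which is taken as close to background. The hepatoblast marker Afp lay between 10.43 and 10.82 over the 6 arrays and the hepatocyte factor Hnf4a between 11.46 and 11.61. Afp was well above the mean of the 4 measured hepatoblast markers, 6.59 in both vector cultures and 6.44 to 6.70 in the wild types. The other members, Dlk1, Gpc3 and Igf2, thus averaged lower than that mean. The 5 hepatocyte markers averaged 6.90 and 6.97 in vector and 6.78 to 6.86 in the wild types, well under Hnf4a. The biliary keratin Krt19 lay between 13.85 and 13.97 in the same arrays. The 4 measured biliary markers averaged 10.893 and 11.015 in vector and 10.74 to 10.89 in the wild types. Alb, the main plasma protein of hepatocytes, stayed under its array's lower quartile in all 6. Of 6 endothelial markers, 5 were under it in all 6 arrays (Pecam1, Cdh5, Tek, Emcn and Stab2), as were Thy1 of 6 mesenchymal markers and Hba-a1 of 7 blood cell markers. The mean level over the endothelial markers ran from 4.36 to 4.47 in vector and from 4.34 to 4.43 in the wild types, and that over the blood cell markers from 4.69 to 4.97 and from 4.71 to 4.85. The mesenchymal markers averaged 6.46 in both vector cultures and 6.41 to 6.54 in the wild types. Vim, an intermediate filament protein, lay between 14.04 and 14.15, so the other mesenchymal markers averaged lower than that mean.

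No gene passed the main test between wild types and vector. With limma's moderated fit of 7 group means and Benjamini-Hochberg adjustment over 12393 genes, 0 genes were called at an adjusted p under 0.05 (0% of all genes), and the smallest adjusted p was 0.999883. At an unadjusted p under 0.05 there were 123 genes (0.992%), 38 higher (0.307%) and 85 lower (0.686%) in the wild types, where 5% of the genes would be 619.65. Each enzyme by itself gave the same count: 0 for wild-type IDH1 against vector (128 genes, or 1.03%, unadjusted), 0 for wild-type IDH2 against vector (116 genes, 0.936%), and 0 for IDH2 against IDH1 wild type (115 genes, 0.928%). The first of these pairs shares its vector arrays with the second. The 2 arrays of a group came from different cultures, as the design text states. This fit had no term for the culture number, so differences between numbers count in its standard errors. A fit of only these 6 arrays with the number as a block was added after the data had been seen. For both wild types against vector it had 433 genes (3.49%) at an unadjusted p under 0.05 and called 1, described further on.

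The differences were small beside those between cultures of 1 group. Over all genes the difference between wild types and vector had an SD of 0.0950 on the log2 scale. The difference between the 2 vector cultures had an SD of 0.238, that between the 2 wild-type IDH1 cultures 0.213 and that between the 2 wild-type IDH2 cultures 0.195; a mean over several arrays has a smaller SD than a difference of single arrays by construction. No gene differed by 2-fold between wild types and vector, and 27 differed by more than 0.5 on the log2 scale. The largest difference was that of Tmigd1, at -0.89, where the vector cultures read 7.47 and 6.88, the IDH1 wild types 7.01 and 5.57, and the IDH2 wild types 6.51 and 6.07. The vector and wild-type arrays of Tmigd1 overlapped. On the higher side Hypk led with 0.82, from 6.44 and 4.55 in vector to 6.52, 6.06, 5.99 and 6.68 in the wild types, again with overlap.

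**Figure D1:**
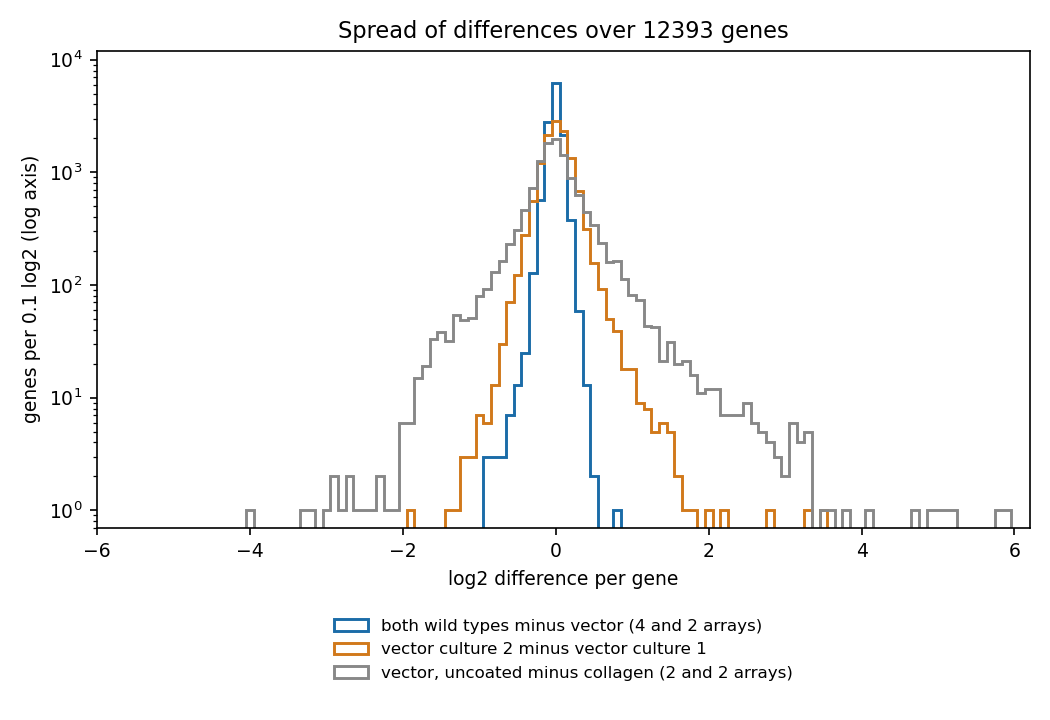
Number of genes (log axis, per 0.1 log2) at each log2 difference, for both wild types minus vector, for vector culture 2 minus vector culture 1, and for vector cells on uncoated plates minus collagen. The wild-type differences (SD 0.0950) are the narrowest and stay inside 2-fold for every gene. The difference of 2 vector cultures has an SD of 0.238 and the plate comparison one of 0.529. A difference of single arrays has a larger SD than a difference of means by construction, so the widths are not on equal terms.

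The same fit called many genes where the culture was changed more. Vector cells on uncoated plates differed from vector cells on collagen in 3628 genes (29.3%), of which 757 (6.11%) changed by at least 2-fold, and the median called change was 1.52-fold. Mutant against wild-type cultures on collagen, 4 arrays against 4, gave 448 genes (3.61%), of which 435 changed by less than 2-fold, with a median called change of 1.34-fold. The smallest called difference there was 0.17 on the log2 scale. Both counts leaned on single arrays: the first came to 2293 without the first vector culture on collagen and 2313 without the first on uncoated plates, and the second ran from 109 without the second wild-type IDH2 culture to 1803 without the second R172K culture. A gene far less than 2-fold apart could thus pass in this fit when its arrays were tight and many others passed with it.

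Each gene's 95% confidence interval says how large a difference these arrays leave room for. The interval for wild types against vector reached a median of 0.24 to either side on the log2 scale, a factor of 1.18. The interval lay wholly within a 2-fold change in either direction for 12332 genes (99.5%) and within 1.5-fold for 11926 (96.2%). For 61 genes a change of 2-fold or more remained within the interval. With the culture number as a block in a fit of only these 6 arrays, chosen after the data had been seen, 12283 genes lay within 1.5-fold and 11 not within 2-fold. These intervals are for 1 gene at a time and are not adjusted over genes. To be called by itself, with no other gene passing, a gene needed a p under 4.03e-06, which at its own standard error meant a median difference of 0.85 on the log2 scale, or 1.81-fold. In a fit of only the 6 arrays without the block, which has fewer degrees of freedom, the median was 1.20, or 2.30-fold. With the block it was worked out at 1.38, or 2.60-fold, but at the p of 1.31e-08 of the 1 gene called there. That p is stricter than the 4.03e-06 above, so the block's figure overstates the size a lone gene needed. In the fit of 14 arrays that size depended on the level: it was 1.85-fold in the 3099 genes of lowest mean level, 1.97-fold in the 3098 next above, 1.78-fold in the 3098 above those and 1.59-fold in the 3098 highest. With 2 arrays on each side, as for a single enzyme against vector, the median was 1.98-fold.

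**Figure D2:**
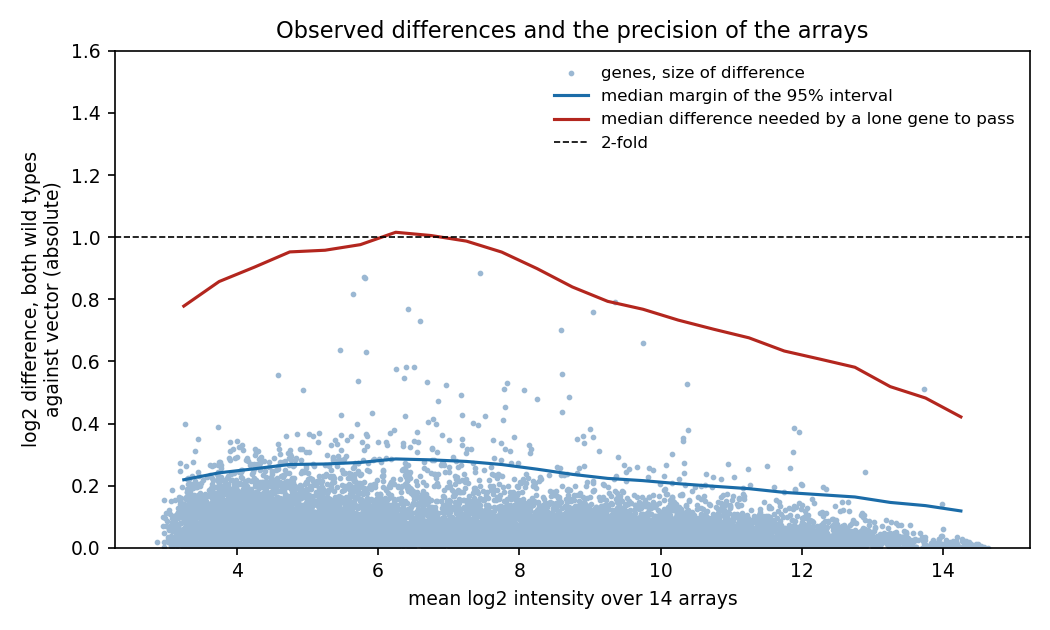
Absolute log2 difference between both wild types and vector for each gene against its mean log2 intensity over 14 arrays, with the median margin of the 95% interval and the median difference a lone gene needed to pass (lines, per 0.5 of level) and 2-fold dashed. Most genes lie below the margin (median 0.24), the needed difference has a median of 0.85, and no gene reaches 2-fold.

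The isocitrate dehydrogenases themselves gave differences close to 0, none past the test. Idh1 read 11.97 and 12.26 in vector, 11.99 and 12.13 with wild-type IDH1, and 11.91 and 12.28 with wild-type IDH2. Its difference between wild types and vector was -0.03 ± 0.15 (SE), with an interval from -0.35 to 0.28, and with wild-type IDH1 alone it was -0.05 ± 0.17. A second Idh1 probe set, with a mean of 11.29, gave -0.0056. Idh2 read 10.83 and 10.80 in vector, 10.90 and 10.80 with wild-type IDH1, and 10.86 and 10.78 with wild-type IDH2, a difference of 0.02 ± 0.07 with an interval from -0.13 to 0.16. For wild-type IDH2 alone against vector it was 0.0026 ± 0.077. The groups overlapped for both genes. These probe sets do not check the labels: the introduced sequences may differ from the mouse genes in species or lack the 3′ end that the probes read, which is not given in the sources used here, so the extra enzyme was not seen on the arrays. The 3 subunits of IDH3 differed from vector by 0.06 (Idh3a), -0.00081 (Idh3b) and -0.01 (Idh3g).

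**Figure D3:**
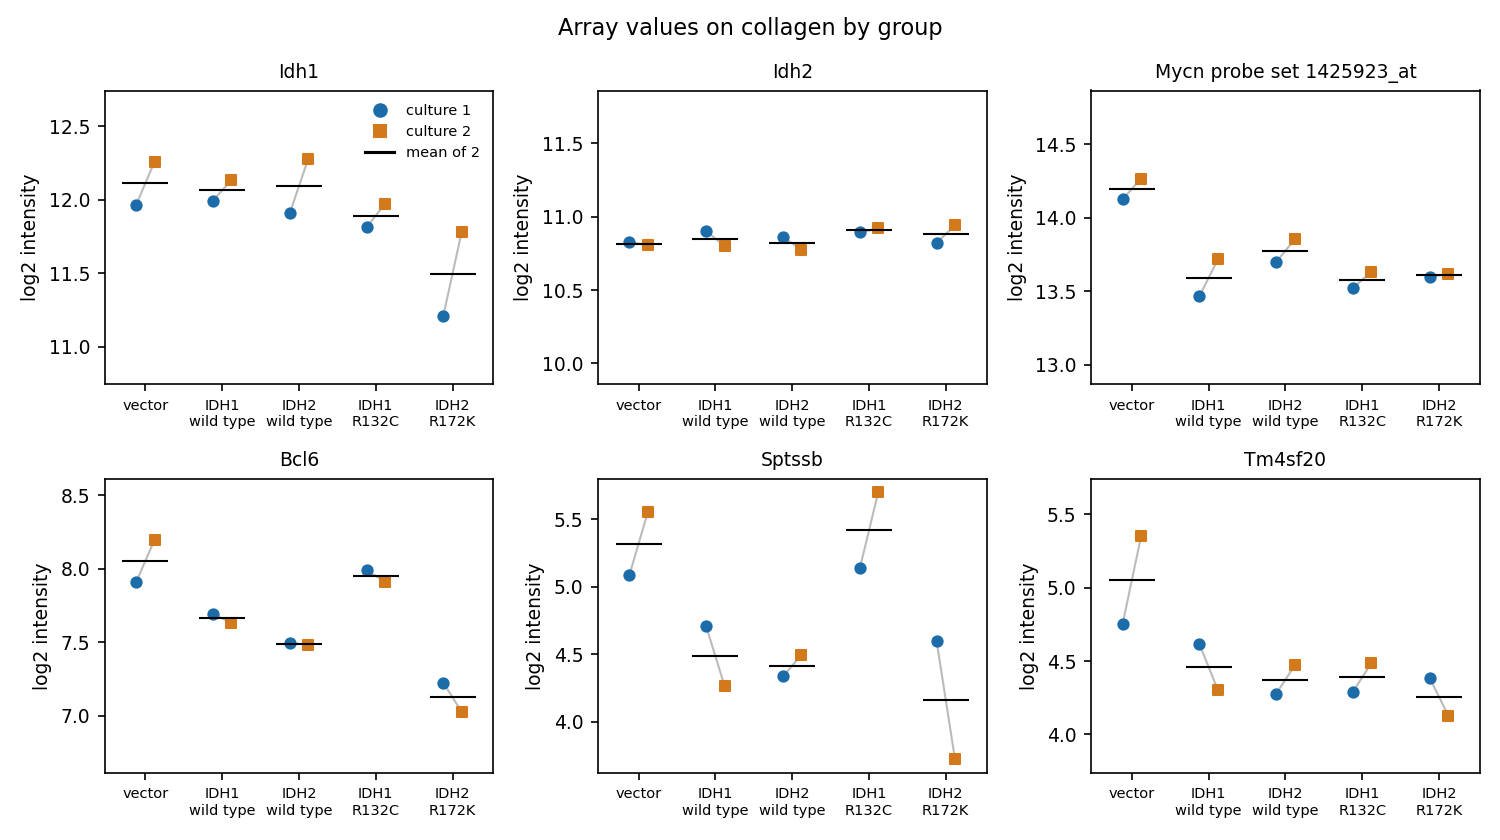
Log2 intensity of 6 genes in each collagen culture (circle, culture 1; square, culture 2; line, mean of 2) for the 5 collagen groups; each panel spans at least 2 log2 units. Idh1 and Idh2 overlap between vector and both wild types, while the probe set 1425923_at of Mycn reads 14.13 and 14.27 in vector and 13.47 to 13.85 in the wild types.

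No enzyme around the reaction was called either. Of 30 measured genes for the citric acid cycle, pyruvate and glutamate, 0 were called, with a median difference of -0.0055 where all genes had -0.0094, and 28 had intervals within 1.5-fold. Citrate synthase, Cs, read 12.67 and 12.78 in vector against 12.62, 12.82, 12.68 and 12.79 in the wild types. Of 27 genes that supply NADPH or defend against oxidants, 0 were called and the median was -0.01. Me1, cytosolic malic enzyme, had 0.06 ± 0.09, and Nnt, the mitochondrial transhydrogenase, 0.0024 ± 0.078. The 6 enzymes that make or clear 2-hydroxyglutarate had a median of 0.01, the 27 dioxygenases that use 2-oxoglutarate, which include histone demethylases and prolyl hydroxylases, 0.02, and the 32 genes of the respiratory chain and mitochondrial translation -0.02, all with 0 called. The respiratory list lay within 1.5-fold for 32 of 32 genes.

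Genes of liver identity gave no call either. Hnf4a, the nuclear receptor that drives hepatocyte genes, read 11.51 and 11.61 in vector and 11.55, 11.50, 11.46 and 11.60 in the wild types, a difference of -0.03 ± 0.10 with an interval from -0.25 to 0.18. Afp, the fetal liver plasma protein, had -0.03 ± 0.18, and the keratins Krt7 and Krt19 of bile duct cells 0.0088 ± 0.14 and 0.03 ± 0.07. The largest differences among the fixed liver genes were those of Cebpa, a hepatocyte transcription factor, at -0.32 ± 0.18, and Sox9, a biliary factor, at -0.41 ± 0.22. Sox9 read 7.04 and 7.67 in vector and 7.19, 6.72, 6.83 and 7.04 in the wild types, so the lower vector culture lay among them, and the difference was -0.10 without vector culture 2 and -0.73 without vector culture 1. Across the lists, 17 hepatocyte transcription factors had a median of -0.05, 26 genes of hepatocyte metabolism -0.02, 17 biliary genes -0.0055 and 15 hepatoblast genes -0.0017, with 0 called in each.

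Of 22 secreted hepatocyte proteins 0 were called and 2 lay above 0, with a median of -0.05, where 55.4% of all genes lay lower in the wild types. Ambp, a plasma protease inhibitor precursor, read 8.65 and 10.04 in vector and 8.71, 8.52, 8.33 and 8.67 in the wild types. Hpx, which binds haem in plasma, read 7.96 and 8.96 in vector and 7.81, 7.94, 7.77 and 8.07 in the wild types. Cp, the copper carrier ceruloplasmin, read 9.33 in vector culture 2 and 7.60 to 8.42 in the other 5 arrays. In all 3 the high reading was that of vector culture 2, and vector culture 1 lay among the wild types. All 3 genes rose in vector cells on uncoated plates, by 5.78-fold for Ambp, 6.88-fold for Hpx and 7.84-fold for Cp (limma adjusted p 9.42e-05, 8.77e-06 and 0.000263).

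Genes that respond to the plate were therefore read against each vector culture in turn. They were chosen in the 4 R132C arrays, which share no array with vector or wild types, after the data had been seen: 287 genes called and at least 2-fold higher (2.32% of all genes) and 205 at least 2-fold lower (1.65%) on uncoated plates. The 287 had a median difference of -0.15 between wild types and vector, and 88.2% of them lay lower in the wild types, beside 55.4% of all genes. Against vector culture 1 alone their median was -0.0055, and against vector culture 2 alone it was -0.28. The 205 had medians of 0.05 against both, -0.10 against culture 1 and 0.19 against culture 2. In these medians the 287 genes were lower against vector culture 2 and close to 0 against culture 1. The 205 lay to opposite sides of the 2 vector cultures. Cultures of the same number deviated together, as described further on. Whether these genes differed from vector within each number was not tested, nor was the cause.

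All 26 lists, those above included, with 538 of 608 places measured, had 0 members called in each of the 4 comparisons of vector and wild types. Their medians between wild types and vector ran from -0.06 for 16 genes of intestinal epithelium to 0.11 for 25 genes of the integrated stress response and serine synthesis. Among the lists not yet described were cell cycle (29 genes, 0.03), cholesterol and fatty acid synthesis (26 genes, 0.03), glycolysis and hypoxia (21 genes, 0.03), p53 targets (17 genes, -0.04), the interferon response (25 genes, -0.03) and integrins, laminins and basement membrane (22 genes, 0.06). Of the stress response genes 23 of 25 lay above 0, led by Nupr1 at 0.44 ± 0.87, where 55.4% of all genes lay lower in the wild types. That list was also the least precise, with 9 of 25 intervals within 1.5-fold, and its genes also differed most between the 2 cultures of each group.

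**Figure D4:**
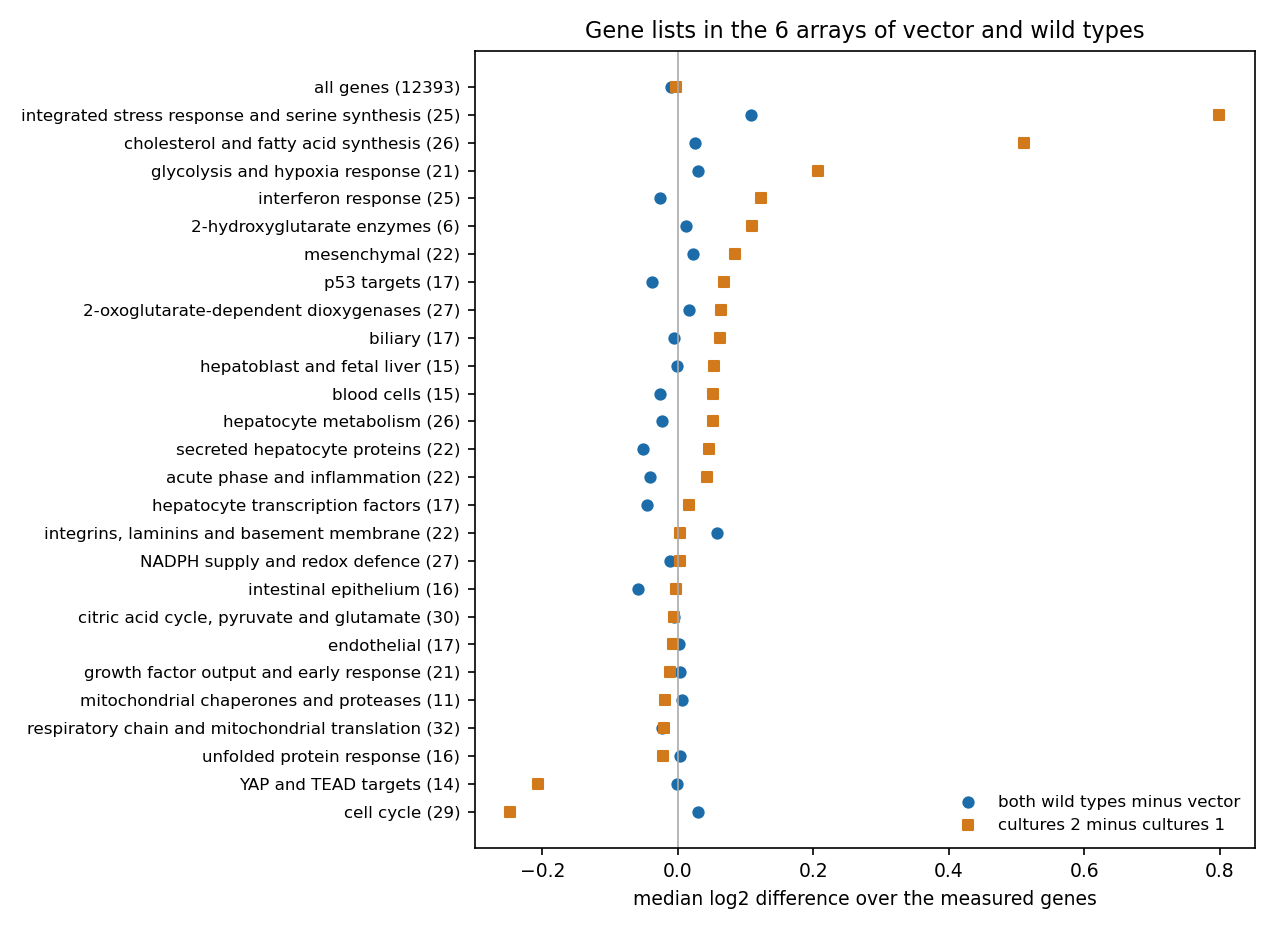
Median log2 difference over the measured genes of each list (number in brackets), for both wild types minus vector (circles) and for cultures numbered 2 minus cultures numbered 1 over the same 6 arrays (squares). The circles stay between -0.06 and 0.11, whereas the squares reach 0.80 for the integrated stress response and 0.51 for cholesterol and fatty acid synthesis, and -0.25 for the cell cycle.

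The genes with the smallest p are given as values, since none passed. On the lower side Bcl6, a transcriptional repressor, read 7.91 and 8.20 in vector, 7.69 and 7.63 with wild-type IDH1, and 7.50 and 7.48 with wild-type IDH2. Vector did not overlap the wild types, the difference was -0.48 ± 0.11 (limma unadjusted p 0.000886, adjusted p 0.999883), and the second Bcl6 probe set, at a mean of 5.62, gave -0.04. Bcl6 rose 3.62-fold in vector cells on uncoated plates. Tm4sf20 (-0.64 ± 0.18) and Sptssb, a subunit that tunes serine palmitoyltransferase (-0.87 ± 0.26), also separated the groups and rose on uncoated plates, by 11.2-fold and 9.15-fold. Without vector culture 2 the differences were -0.33 for Bcl6, -0.34 for Tm4sf20 and -0.64 for Sptssb, and without vector culture 1 they were -0.62, -0.93 and -1.10. The third smallest p on that side was that of Mycn (-0.51 ± 0.13, unadjusted p 0.00224), described further on. The others were Sucnr1, the succinate receptor (-0.40 ± 0.10), Cyp2c50 (-0.33 ± 0.09) and Mgl2 (-0.35 ± 0.10). On the higher side they were Slc27a5, a bile acid-CoA ligase of hepatocytes (0.30 ± 0.09), Enam (0.34 ± 0.11), Gabrg3 (0.27 ± 0.09), Cul9 (0.31 ± 0.10), Myot (0.27 ± 0.09) and Map3k7cl (0.31 ± 0.12). Sucnr1, Cyp2c50, Mgl2 and these 6 genes read under the lower quartile in all 6 arrays, near background. Arrays that do not overlap between vector and the wild types were found for 1061 genes (8.56%), 386 higher (3.11%) and 675 lower (5.45%).

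Between the enzymes, the gene with the smallest p was Tac2, a tachykinin precursor, which read 3.35 and 3.27 with wild-type IDH1, 3.67 and 3.83 with wild-type IDH2, and 3.56 and 3.60 in vector. The difference of 0.44 ± 0.09 did not pass (limma adjusted p 0.99993), and all readings were near background. Against vector alone, wild-type IDH1 had its smallest p in Slc29a4, a monoamine transporter, at -0.45 ± 0.11, and wild-type IDH2 in Bcl6, at -0.56 ± 0.13. No gene differed by 2-fold in any of these comparisons, and the largest difference between the enzymes was 0.54 on the log2 scale.

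One probe set passed when the culture number was taken into account. Cultures with the same number deviated together, so the number was added as a block in a fit of only the 6 arrays, chosen after the data had been seen. It called 1 of 12393 genes (0.00807%), with 433 (3.49%) at an unadjusted p under 0.05. The call came through the probe set 1425923_at, which the platform assigns to Mycn, a MYC family transcription factor. It read 14.13 and 14.27 in vector, 13.47 and 13.72 with wild-type IDH1, and 13.70 and 13.85 with wild-type IDH2, so both wild types lay below vector within each number. The difference was -0.51 ± 0.03 on the log2 scale, 1.43-fold, with a limma adjusted p of 0.000162 under the block and of 0.999883 without it. Wild-type IDH1 against vector gave -0.60 (adjusted p 0.00013 under the block) and wild-type IDH2 -0.42 (adjusted p 0.00485). Both R132C and both R172K cultures on collagen read 13.52 to 13.63, below vector too. On uncoated plates vector read 14.25 and 13.68 and R132C 13.53 and 13.21. The other 2 Mycn probe sets read 5.03 and 4.41 on average, close to background, and differed by -0.03 each, so they could not bear on the difference either way. They did disagree with 1425923_at in level, and whether that probe set reads Mycn RNA was not tested. The call is therefore that of 1 probe set. A block fitted to all 14 arrays called 0 genes. Under the 6-array block with 1 array left out in turn, Mycn passed each time, and the count of called genes was 1 to 14, or 76 without vector culture 1, in fits with 1 residual degree of freedom.

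Many genes differed by culture number. Cultures numbered 2 differed from cultures numbered 1, over vector and both wild types, in 1057 genes (8.53%), 535 higher (4.32%) and 522 lower (4.21%) (limma with the group as a term, adjusted p under 0.05), of which 28 were at least 2-fold higher (0.226%) and 3 at least 2-fold lower (0.0242%). Every array of the 6 correlated best with an array of its own number in another group: same-number arrays of different groups had r over genes of 0.9979 to 0.9989, and the 2 arrays of 1 group 0.9964 to 0.9976. This comparison was also chosen after the data had been seen. The count was 723 without the vector pair, 582 without the wild-type IDH1 pair and 670 without the wild-type IDH2 pair. No source used here says what the number stands for.

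The integrated stress response, in which ATF4 turns on amino acid synthesis and transport when translation initiation is restrained, stood out in size. Of 25 measured genes 22 were called higher in cultures numbered 2, where 4.32% of all genes were, with a median of 0.80 where all genes had -0.0032. Chac1, which degrades glutathione, read 7.18 and 10.65 in vector, 7.53 and 10.91 with wild-type IDH1, and 7.79 and 10.38 with wild-type IDH2, so all 3 second cultures lay above all 3 first ones, by 8.85-fold (log2 3.15 ± 0.14, limma adjusted p 1.08e-06). Trib3, a pseudokinase that feeds back on ATF4, was 8.73-fold higher and Nupr1, a stress-induced chromatin protein, 6.26-fold. The amino acid enzymes Cth, Psph and Asns were 3.78-fold, 2.18-fold and 1.82-fold higher, and the cystine transporter Slc7a11 2.53-fold. Between the groups Chac1 differed far less, with means of 8.92 in vector, 9.22 with wild-type IDH1 and 9.08 with wild-type IDH2.

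Promoters of these genes are shown because these genes moved together and ATF4 with its C/EBP partners is known to bind the element TGATGNAA. It was searched on both strands (TTNCATCA on the other) from 250 bases before to 50 after each start in RefSeq promoters of GRCm38.p6. It was found in 8 of 20 stress response genes that were higher in cultures numbered 2 and had a promoter in the table (40.0%), beside 3.13% of 9887 genes of the array and 4.51% of 27025 genes in all. Windows from Chac1 (chr2:119351023-119351082, plus strand), Nupr1 (chr7:126625547-126625606, minus strand), Slc7a11 (chr3:50443627-50443705, minus strand) and Asns (chr6:7693210-7693269, minus strand) follow, written 5′ to 3′ on the gene's strand, with the element in capitals; all lie upstream of the start.
Chac1: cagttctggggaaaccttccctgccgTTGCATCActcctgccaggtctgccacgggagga
Nupr1: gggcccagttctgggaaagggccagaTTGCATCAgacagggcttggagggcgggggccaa
Slc7a11: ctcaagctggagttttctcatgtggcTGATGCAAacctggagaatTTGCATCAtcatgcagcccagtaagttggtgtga
Asns: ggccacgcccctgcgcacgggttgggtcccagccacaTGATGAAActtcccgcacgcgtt
Slc7a11 carries the element once on each strand, and the others carry it once. The list was written as genes of the ATF4 response, so its larger share can follow from that choice and is no result of these arrays. A match is a stretch of letters and was not tested for binding.

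Other groups differed by number as well. Beside 4.32% of all genes called higher and 4.21% called lower, 21 of 26 genes for cholesterol and fatty acid synthesis were called higher in cultures numbered 2 (median 0.51), among them Acss2, which makes acetyl-CoA from acetate (2.04-fold), and Idi1, which isomerises isopentenyl pyrophosphate (log2 0.58). Idi1 read 12.10 and 12.62 in vector, 12.05 and 12.55 with wild-type IDH1, and 12.05 and 12.78 with wild-type IDH2. Of 21 glycolysis and hypoxia genes 15 were called higher (median 0.21), with the mitochondrial BH3 protein Bnip3 at 2.35-fold. Of 29 cell cycle genes 17 were called lower (median -0.25), such as Ccne2, cyclin E2 (log2 -0.64), or 9 without the vector pair, and of 14 YAP and TEAD targets 8 were called lower (median -0.21). Idh1 was 1.20-fold higher in cultures numbered 2 (limma adjusted p 0.00722), a larger difference than any of its differences among vector and the wild types. The 3 genes at least 2-fold lower were Ppbp (2.47-fold), Dusp1 (2.21-fold) and Lgals4 (2.05-fold).

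**Figure D5:**
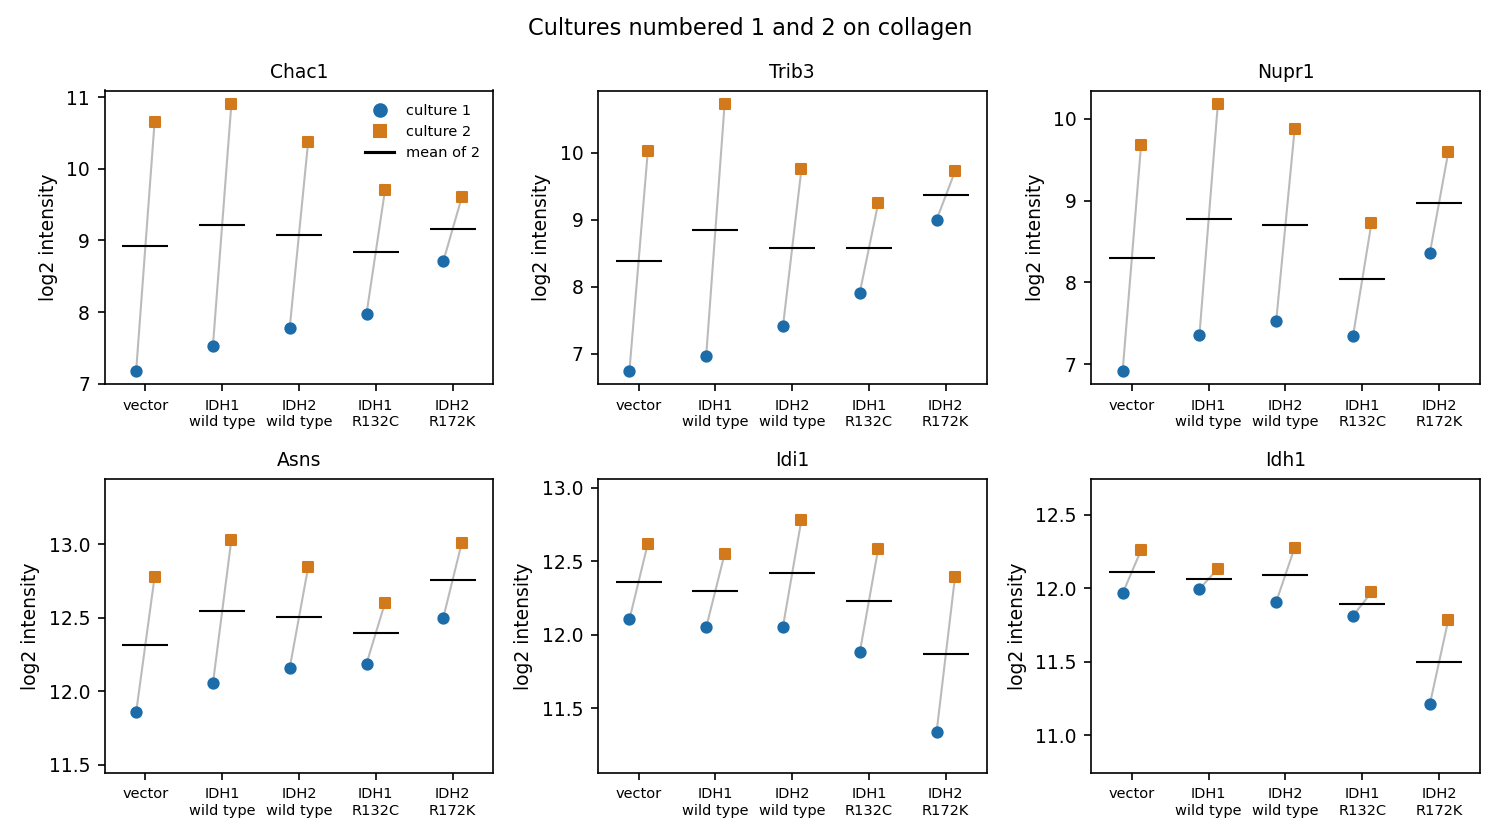
Log2 intensity of 6 genes in each collagen culture (circle, culture 1; square, culture 2; line, mean of 2) for the 5 collagen groups; each panel spans at least 2 log2 units. In every group the culture numbered 2 is the higher, by 8.85-fold for Chac1 and 1.20-fold for Idh1 over vector and both wild types, while the group means of vector and wild types lie close.

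The 4 mutant cultures on collagen share no array with that comparison. Of the 535 genes higher in cultures numbered 2, 489 (91.4%) were also higher in the mutants' second cultures, where 54.8% of all genes were, and of the 522 lower 344 (65.9%) were also lower. Chac1 was 2.47-fold and Acss2 2.25-fold higher there, and 17 of 26 cholesterol and fatty acid genes were called, against 4 of 25 stress response genes and 74 of all genes (0.597%).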

How the data were processed

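RNA was measured on 14 Affymetrix Mouse 430A 2.0 arrays. The authors deposited probe set intensity summarised by RMA, per the submitters' processing notes, with no version given. The deposited intensity values were on a linear scale, between 5.84 and 26770, and log2 of them was taken. Of 22690 probe sets, 64 controls, 691 with several symbols and 1555 unnamed in the platform table were left out, and each of 12393 genes is its probe set with the highest mean. The 7 group means of all 14 arrays were fitted with limma 3.58.1 in R 4.3.3 (lmFit, eBayes with an intensity trend, 7 residual and 5.67 prior degrees of freedom), checked on simulated data, and genes were called at a Benjamini-Hochberg adjusted p under 0.05. The simulated arrays held independent noise and no effect of culture number, so that check does not cover it. The number of arrays limits the precision.

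That same-numbered cultures pair was read from the data, not the labels. Over genes, their deviations from the group means correlated at 0.487 (vector and wild-type IDH1), 0.483 (vector and wild-type IDH2) and 0.423 (IDH1 and IDH2 wild types). The main fit had no term for the number, so differences between numbers count in its standard errors. The block was an alternative, beside other probe set rules, filters, normalizations, moderation, array weights and leaving out arrays. Named genes were those called with no overlap, otherwise up to 6 a direction with the smallest p, up to 2 of the highest level per list, and the fixed genes of IDH, NADPH and liver identity. Genes named in the culture number comparison, and Ambp, Cp, Hpx, Hypk, Tmigd1, Sptssb and Idi1, were chosen after their values were seen. Members and lists were chosen with earlier results of these data known. G6pdx, H19 and Spp1 were not analysed here.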

Additional observations from a re-analysis of the deposited data

Results flagged for a closer look

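For 10 named genes every array of 1 wild-type enzyme lay above both vector arrays and every array of the other enzyme lay below both. Non-overlap is common with 2 arrays a group. Over all genes it was 23.1% for IDH1 against vector, 22.6% for IDH2 against vector and 23.2% between the enzymes. The share of all genes with the opposite-sided pattern was not counted, so the 10 are not set apart by it. The test of the difference itself, wild-type IDH2 minus wild-type IDH1 with limma, passed for none of them (smallest adjusted p 0.99993). On the log2 scale the differences were 0.44 for Tac2, 0.32 for Pgr, 0.44 for Erg, 0.34 for Tmprss5, -0.41 for Fgf12, -0.35 for Igk-V21, -0.37 for Dusp15 and -0.30 for Moxd1, all genes chosen for their small p. They were -0.0857 for Idh3b, a subunit of mitochondrial IDH3, and -0.15 for Nnt, the mitochondrial transhydrogenase.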

How the results depend on the processing

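Against vector and between the enzymes, 0 genes were called with every probe set by itself, with a gene's probe sets averaged, without dim genes, with cyclic loess, with arrays centred on their median, without the intensity trend, with only the arrays compared, with array weights, with the replicate block over 14 arrays, and without each array in turn (both wild types: 45 to 400 genes at an unadjusted p under 0.05, smallest adjusted p 0.0948, without vector culture 1). The replicate block with only the 6 arrays, added after the data were seen, called 1 gene for both wild types, 1 for IDH1 and 1 for IDH2, Mycn in each (-0.51, -0.60, -0.42); with the 10 collagen arrays it called 1 and 1 (-0.51, -0.60). It changed no other call against vector. Without each array in turn the 6-array block called 1, 1, 2, 4, 14 and 76 genes, with Mycn at -0.54 to -0.48. The plate count was 5848 with every probe set and 2293 to 3169 without single arrays. The mutant count was 209 with array weights, 792 with the replicate block and 109 to 1803 without single arrays. Between cultures numbered 2 and 1, 582 genes were called without the IDH1 pair and 670 without the IDH2 pair, and 9 cell cycle genes without the vector pair.

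Some differences that were not called turned sign, over the widest ranges for Lgals4 and Krt7. Those 2 genes also differed between cultures numbered 2 and 1, by -1.03 and -0.41 on the log2 scale. With the mean of probe sets Idh3a was -0.0086, Nnt -0.027 and Klrb1b (IDH2 against vector) -0.00082; with cyclic loess Nnt was -0.0012; with median centring Idh1 was 0.00049, Idh3b 0.033, Idh3g 0.023, Hnf4a 0.0022, Alb 0.0059 and Afp 0.0059. Without single arrays Idh1 ran from -0.18 to 0.11, Idh2 from -0.0061 to 0.043, Idh3a from -0.082 to 0.20, Idh3b from -0.014 to 0.012, Idh3g from -0.037 to 0.015, Nnt from -0.033 to 0.038, Lgals4 from -0.83 to 0.22, Hnf4a from -0.085 to 0.021, Alb from -0.068 to 0.011, Krt7 from -0.25 to 0.27, Afp from -0.11 to 0.057 and Me1 from -0.014 to 0.13. The cause was not tested. Another background correction and a slide or scan block could not be run on summarised values. Readings near background limit the dim genes.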
